A study of Mus musculus with 4 samples.

Results

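Alveolar type 1 (AT1) cells were picked out of a single-cell dataset of mouse lung by their transcripts. A barcode counted as an AT1 cell when it held at least 3 unique molecular identifiers (UMIs, each standing for 1 captured transcript) of Rtkn2, at least 1 UMI of at least 3 of the 6 genes Ager, Akap5, Hopx, Col4a3, Igfbp2 and Spock2, UMIs of fewer than 3 of the 5 endothelial genes Cdh5, Ptprb, Pecam1, Tek and Calcrl, and none of the ciliated-cell factor Foxj1. The rule found 79 cells among the 16541 barcodes kept, each with 500 genes or more and a mitochondrial share of UMIs of no more than 15%. Because measured transcripts chose these cells, their levels of the rule's genes and their differences from other cells are given as descriptions, with no test.

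The study profiled lungs of 8-week-old C57Bl6/J mice by SPLiT-seq, which labels fixed cells with successive rounds of well barcodes. It compared 2 pools. Cre_Pos held lung cells of 6 mice with the genotype Shh.Cre+/Flox-p73, in which Cre recombinase under Shh control can remove exons 7 to 9 of Trp73, the gene of the transcription factor p73. Cre_Neg held cells of 6 littermates of the genotype Shh.Cre-/Flox-p73, which lack Cre and are homozygous for the floxed allele. All cells of both pools had passed bead depletion of CD45-positive cells, enrichment for Epcam-positive cells and a sort for DAPI-negative live cells. The mixed pools were then split into 4 sublibraries, which are technical aliquots and not separate animals. With 1 pool per genotype there is no replicate, so no p-value is given anywhere below, and a difference between the pools describes these pools. Which sexes were pooled is not stated in these sources.

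AT1 cells are thin, widely spread epithelial cells that cover most of the alveolar surface and form, with the capillary endothelium and a shared basement membrane, the barrier across which gas is exchanged. They carry caveolae, sodium channels and tight junctions, send growth and guidance signals to neighbouring capillaries, and can arise from surfactant-producing alveolar type 2 (AT2) cells through a Krt8-positive transitional state. The factor NKX2-1 and the Hippo pathway effectors YAP1 and TAZ (encoded by Wwtr1), which act through TEAD factors, are known to hold AT1 identity in mice. p73 belongs to the p53 family and is best known in the airway for its part in multiciliated cells.

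Trp73 had 0 UMIs in the 79 AT1 cells, in every sublibrary of both pools. At the 1143034 UMIs of these cells a count of 0 allows up to 2.62 CPM (UMIs of a gene per 1000000 UMIs of the cells), and 0 of 79 cells allows a share of up to 3.80% of cells with a UMI. The limit was 7.91 CPM in the Cre_Neg and 3.93 CPM in the Cre_Pos cells. Deletion of the targeted exons therefore could not be checked in AT1 cells. Trp73 stood at 0.286 CPM in AT2 cells and 2.99 CPM in Krt8 transitional cells of the same libraries. Of its relatives, Trp63, a marker of basal cells, also had 0 UMIs, and Trp53 had 8 UMIs in each pool among the 47 cells described below.

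For orientation, the promoters of 3 genes that set AT1 cells apart are shown: Ager, a receptor of the alveolar surface that the rule used, and Scnn1g and Scel, which are among the leading genes described below and which the rule did not use. Each is the 250 bases upstream of the RefSeq gene start in mouse build GRCm38.p6, 5′ to 3′ on the coding strand, in lower case. Capitals mark matches, on either strand, to CAAGTG (bound by NKX2-1), TGACTCA (AP-1) or GGAATG (TEAD).
Ager, chr17:34597600-34597849, plus strand: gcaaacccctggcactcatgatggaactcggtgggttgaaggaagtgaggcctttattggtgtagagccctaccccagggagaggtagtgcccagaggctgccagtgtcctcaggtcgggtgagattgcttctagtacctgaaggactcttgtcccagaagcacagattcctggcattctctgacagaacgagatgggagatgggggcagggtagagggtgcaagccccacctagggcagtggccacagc
Scnn1g, chr7:121734229-121734478, plus strand: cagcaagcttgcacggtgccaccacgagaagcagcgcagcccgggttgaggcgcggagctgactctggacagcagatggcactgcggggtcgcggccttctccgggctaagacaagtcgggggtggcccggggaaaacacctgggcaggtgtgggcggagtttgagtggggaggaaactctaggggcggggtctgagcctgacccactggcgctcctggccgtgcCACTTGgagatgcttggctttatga
Scel, chr14:103513091-103513340, plus strand: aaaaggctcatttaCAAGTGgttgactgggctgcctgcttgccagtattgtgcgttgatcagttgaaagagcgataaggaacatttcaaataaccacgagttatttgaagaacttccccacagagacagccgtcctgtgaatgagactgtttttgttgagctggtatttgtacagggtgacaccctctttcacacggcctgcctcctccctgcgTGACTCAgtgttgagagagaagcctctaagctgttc
Scel held CAAGTG 236 bases and TGACTCA 36 bases before its start, Scnn1g held CAAGTG on the opposite strand (read as CACTTG) 25 bases before its start, and Ager held none of the 3 motifs. RefSeq promoters were matched for 23 of 28 rule and leading genes, with 36 starts. Among these, CAAGTG lay upstream of 3 starts (Pmp22, Scel and Scnn1g), TGACTCA of 3 (Igfbp2, Ptpre and Scel) and GGAATG of 2 (Plcl1 and Pmp22). Of 32851 starts in the whole table, 11.6% held CAAGTG, 4.46% TGACTCA and 12.6% GGAATG. A match describes letters in this window only.

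AT1 cells were rare in both pools and somewhat more frequent in Cre_Pos, within counting error. They numbered 32 of 7793 kept Cre_Neg barcodes (0.411%, exact 95% interval 0.281 to 0.579%) and 47 of 8748 Cre_Pos barcodes (0.537%, 0.395 to 0.714%), a ratio of 1.31 (0.817 to 2.12). Across sublibraries 1 to 4 the share was 0.427, 0.329, 0.385 and 0.538% in Cre_Neg and 0.637, 0.371, 0.606 and 0.542% in Cre_Pos. Cre_Pos was higher in each of the 4 sublibraries, yet the 2 sets of shares overlapped, and in sublibrary 4 the pools were nearly level. The mean was 0.420 ± 0.0884% against 0.539 ± 0.119% (SD over 4 aliquots of 1 pool each). All intervals here cover counting error only.

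Set against AT2 cells the difference was larger. Cre_Neg held 1.68 AT1 cells per 100 AT2 cells and Cre_Pos 3.35, a ratio of 2.00 (1.24 to 3.25). By sublibrary the values were 1.78, 1.28, 1.58 and 2.27 in Cre_Neg and 4.01, 2.40, 3.75 and 3.20 in Cre_Pos, which do not overlap. The denominator moved as well: AT2 cells, chosen by at least 10 Sftpc UMIs and other surfactant genes, numbered 1908 in Cre_Neg and 1403 in Cre_Pos. The AT1 cells counted here were mixed too. Of them, 15 (7 Cre_Neg, 8 Cre_Pos) held 10 or more Sftpc UMIs themselves and were counted as AT1, not AT2. At least 3 UMIs of the club-cell genes Scgb1a1 and Cyp2f2 together were in 12 AT1 cells (1 Cre_Neg, 11 Cre_Pos). Without these 12 cells the ratio was 1.58. Enrichment for Epcam-positive cells can set either share. The cells were also split by sex-linked transcripts. Of kept Cre_Neg barcodes, 5415 held Xist and no Y-linked UMI, and 1155 held Y-linked UMIs and no Xist. The numbers in Cre_Pos were 7181 and 528, so the mix by these transcripts differed between the pools. Among barcodes with Xist and no Y-linked UMI the AT1 share was 0.462% in Cre_Neg and 0.501% in Cre_Pos, from 25 and 36 AT1 cells. Among barcodes with Y-linked UMIs and no Xist it was 0.433% and 0.947%, from 5 cells in each pool.

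**Figure D1:**
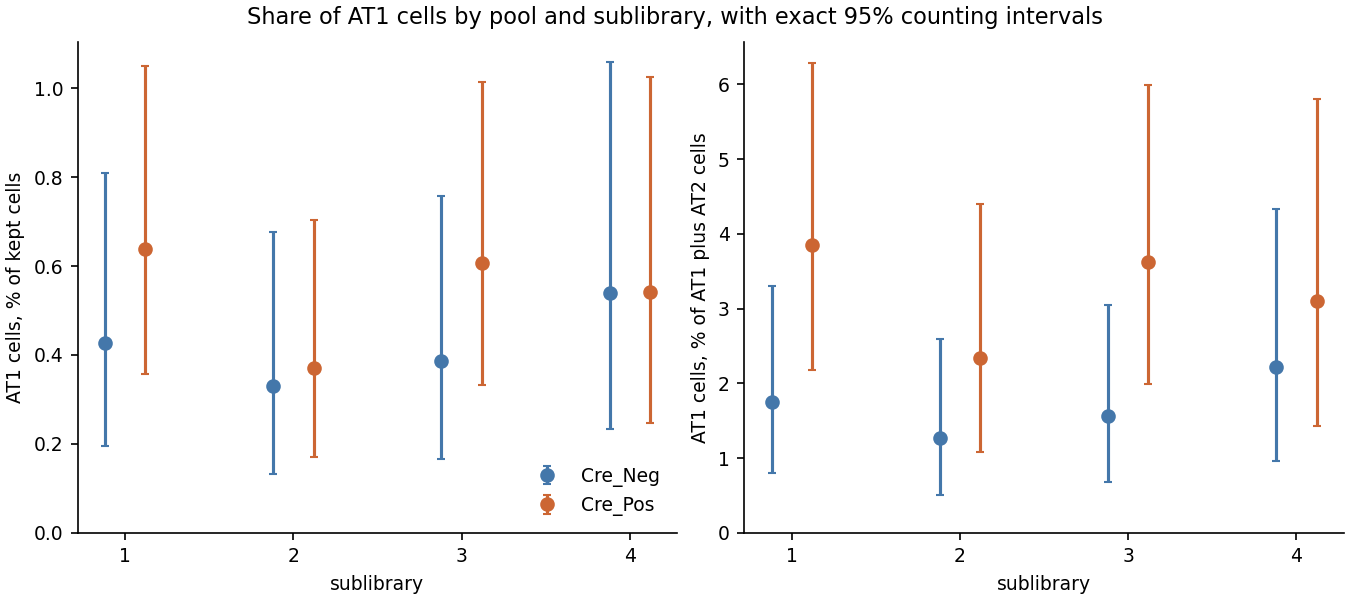
AT1 cells in percent of kept barcodes (left) and in percent of AT1 plus AT2 cells (right) for each of the 4 sublibraries, Cre_Neg in blue and Cre_Pos in orange, with exact 95% counting intervals as bars. On the left the pools are nearly level in sublibrary 4 (0.538 and 0.542%), and on the right each Cre_Pos point lies above the Cre_Neg point of its sublibrary, with intervals that overlap.

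The 79 cells were not of 1 kind. Rtkn2, which encodes a GTPase-binding protein, split them: 47 cells (19 Cre_Neg, 28 Cre_Pos) held between 28 and 229 Rtkn2 UMIs with a median of 94, and 32 cells (13 and 19) held 3 to 18. A limit of 20 UMIs, set after these values were seen, separates the groups. Of the 47 cells, 46 held Spock2, a matrix proteoglycan, and 46 held Pdpn, the AT1 surface protein podoplanin, which the rule did not use. Of the 32 cells, 3 held Spock2 and 7 held Pdpn. Lamp3, a protein of the lamellar bodies in which AT2 cells store surfactant, appeared in 4 of the 47 cells and in 23 of the 32.

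Most AT2 and club-cell transcripts sat in the 32 cells. Among them, 15 cells (7 Cre_Neg, 8 Cre_Pos) held at least 10 UMIs of the surfactant gene Sftpc, 12 (1 Cre_Neg, 11 Cre_Pos) held at least 3 UMIs of the club-cell genes Scgb1a1 and Cyp2f2 together, 3 of these (all Cre_Pos) met both limits, and 8 met neither. None of the 47 cells met either limit. The summed AT2 marker level was 10597 CPM in the 32 cells against 199 CPM in the 47. The 9 Krt8 transitional markers summed to 782 CPM in the 32 cells and 395 in the 47, with Cre_Neg aliquots of the 32 from 52.5 to 2864 CPM. The longer list of 17 Krt8 transitional genes went the other way, at 2010 CPM in the 32 and 2359 in the 47. Ciliated markers were higher in the 47, at 226 against 81.1 CPM. Club-cell markers summed to 285 CPM in the Cre_Neg and 2439 CPM in the Cre_Pos cells of the 32. Whether the 32 barcodes are cells between types, pairs of cells or cells with RNA of others was not tested; the doublet caller Scrublet marked 0 of the 79 and 185 (1.12%) of all kept barcodes.

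**Figure D2:**
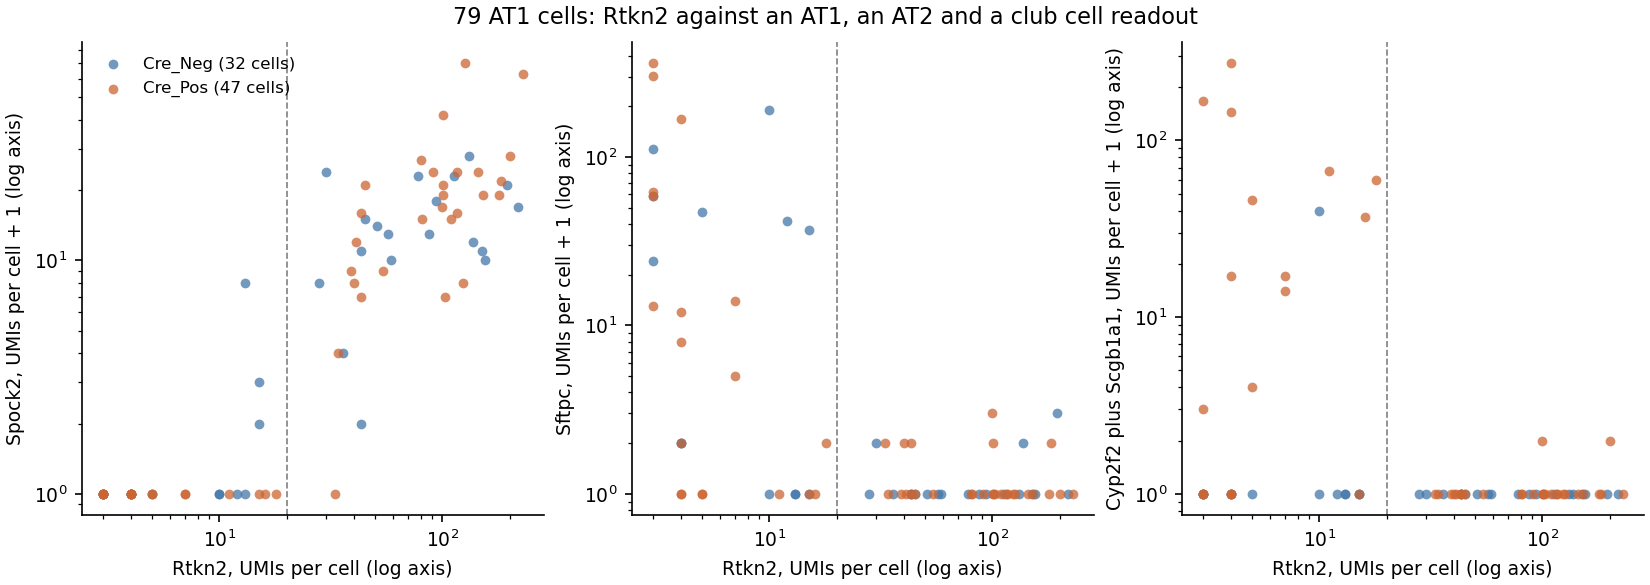
Each of the 79 AT1 cells by its Rtkn2 UMIs (x, log axis) and, from left to right, its UMIs plus 1 of Spock2, of Sftpc and of Cyp2f2 and Scgb1a1 together (y, log axes), Cre_Neg in blue and Cre_Pos in orange, with a dashed line at 20 Rtkn2 UMIs. Cells right of the line hold at most 2 Sftpc UMIs and nearly all hold Spock2, and the cells with many Sftpc or club UMIs lie left of it.

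Values near the rule's limit had the same form. The 14 barcodes with 2 Rtkn2 UMIs that met the other criteria had a summed Sftpc level of 3656 CPM and an Ager level of 222 CPM. The 21 AT1 cells with 3 to 9 Rtkn2 UMIs had 3719 and 738 CPM, and the 58 with 10 or more had 344 and 2876 CPM. The share of cells at or above 20 Rtkn2 UMIs was 0.244% in Cre_Neg and 0.320% in Cre_Pos, a ratio of 1.31 (0.708 to 2.49), and for the 32 cells below it the ratio was 1.30 (0.610 to 2.87). Gene values below are given for the 47 cells first, with the 79 beside them where they differ.

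In the 47 cells AT2 and club transcripts were at or near background. Sftpc was seen in 9 of 47 cells (19.1%, 9.15 to 33.3%), with at most 2 UMIs in a cell and 17.3 CPM in sum. In aerocytes, a capillary endothelial type that lacks it, 17.5% of cells held a UMI at a median depth of 9190 UMIs, against medians of 11008 and 13956.5 in the 47 cells of the 2 pools, and barcodes of at most 50 UMIs, which hold mostly free RNA, carried 1533 CPM in Cre_Neg and 1416 CPM in Cre_Pos. Etv5, an AT2 transcription factor, had 0 UMIs. Of the 5 club markers Scgb1a1 gave 2 UMIs and Cyp2f2 none. Basal, neuroendocrine and neutrophil markers were at 0. The macrophage marker list summed to 232 CPM, of which Csf1r, the receptor of colony stimulating factor 1, made 231 CPM, in 39 of the 47 cells; Adgre1, Marco, Chil3 and Ear2 were at 0. Csf1r stood at 1.52 CPM in AT2 cells and between 172 and 285 CPM in every sublibrary of both pools in the 47 cells.

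The genes that most set AT1 cells apart from AT2 cells were structural and signalling genes. Ranked over the 79 cells by the difference in log2(CPM + 10), and leaving out the rule's genes, Cped1 led (7.0), followed by Rasgrf2, an exchange factor of Ras proteins (6.15), and the secreted guidance proteins Sema3a (5.95) and Sema3e (5.93). Next came Pakap, a fused gene of a membrane-associated and an anchoring protein, and Cav1 (5.39), the coat protein of caveolae. Scnn1g, the gamma subunit of the epithelial sodium channel, and Pdpn were at 4.92 each. The other 12 of the first 20 were Rnf150, Ptpre, Scel, Cavin2, 2610307P16Rik, Mcc, Clic5, Plcl1, Cdh13, Pmp22, Vegfa and Plce1, between 4.34 and 4.87. Since the rule chose these cells by transcripts, the ranking is a description.

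Set beside other cell types, these genes fell into 3 kinds. Cped1 had 2553 CPM in the 47 cells, 17.8 in the other 32, 1.23 in AT2 cells, 12.8 in transitional cells and 90.0 in aerocytes. Scel, which encodes sciellin, a protein of cornified and barrier epithelia, was at 513 CPM in the 47 cells and had no UMI in the 32. Both were thus low in each of the other populations shown. Cav1 had 1601 CPM in the 47 cells and 868 in aerocytes, Cavin2, another caveolar coat protein, 786 and 888, and Mcc 914 and 2044, so these were shared with the capillary cells. Cdh13, the adhesion protein T-cadherin, had 1220 CPM in the 47 cells, 1033 in the 32 and 2473 in Krt8 transitional cells. Clic5, which ties membranes to the actin cytoskeleton, was at 3952 CPM, 1745 in the 32 and 1432 in aerocytes. Against all other kept barcodes together, Sema3a (5.64), Col4a4 (4.82), Scnn1g (4.73), Scel (4.65) and Cped1 (4.50) came first; Col4a4 encodes a chain of the same basement membrane collagen as Col4a3.

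**Figure D3:**
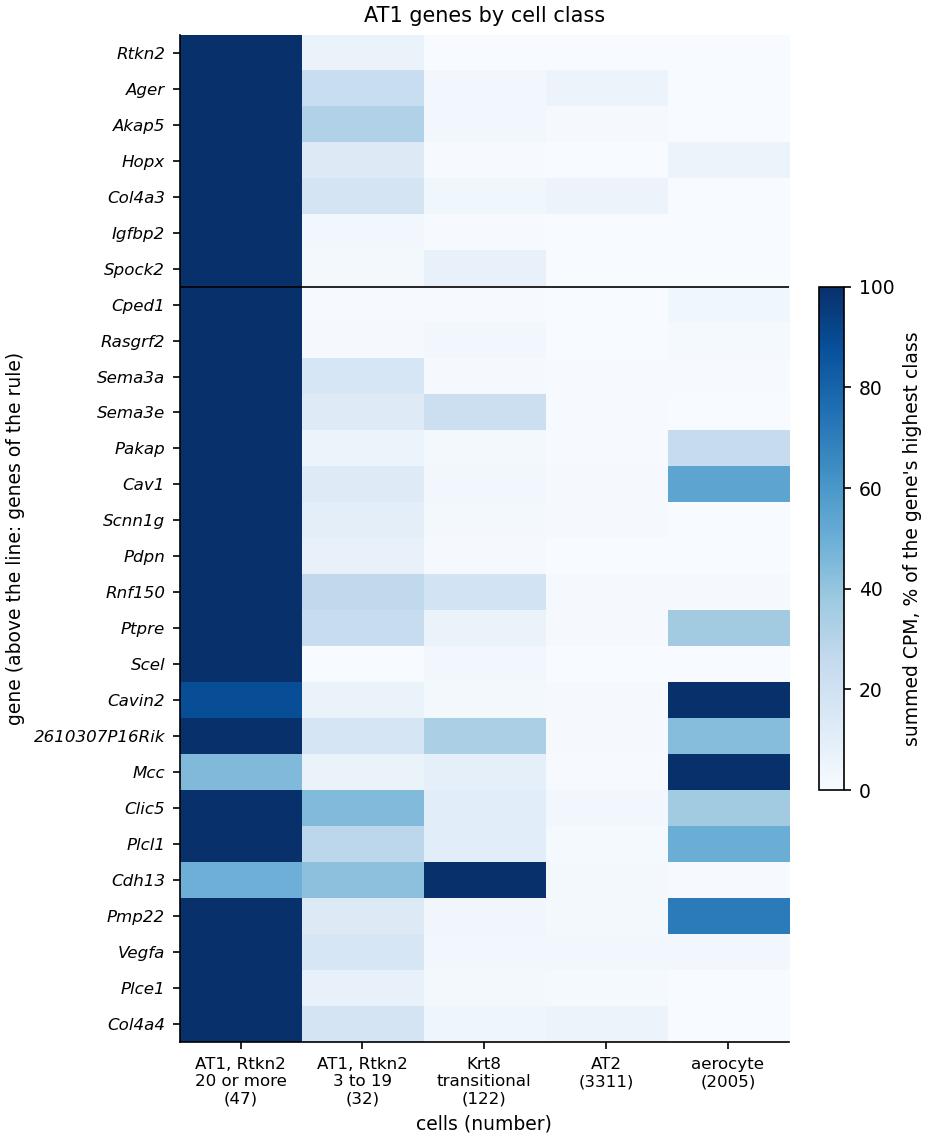
Summed CPM of the rule's genes (above the line) and the leading genes (below it) in 5 classes of cells, each gene in percent of its highest class, from white (0) to dark blue (100). Most genes peak in the 47 cells with 20 or more Rtkn2 UMIs, Cavin2 and Mcc peak in aerocytes, and Cdh13 peaks in Krt8 transitional cells.

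Igfbp2, which marks mature AT1 cells and encodes a binding protein of insulin-like growth factors, was seen in 28 of the 47 cells (11 Cre_Neg, 17 Cre_Pos). Cells with it were deeper, with a median of 14176.5 UMIs against 10278 in the 19 cells without it, and depth decides in part whether a UMI is seen. Cells with Igfbp2 had 7786 CPM of Rtkn2 against 5867, 1802 of Cav1 against 1195, 893 of Peak1, a cytoskeletal pseudokinase, against 446, and 49.2 of the intermediate filament gene Krt8 against 152, the last from 21 and 32 UMIs. Hopx, a homeodomain cofactor, was level at 2160 and 2191 CPM, and Ager was at 3231 and 3780 CPM. Of the 381 Peak1 UMIs in cells with Igfbp2, 109 sat in 1 Cre_Pos cell. Whether depth, or for Peak1 this cell, accounts for these differences was not tested.

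Between the pools, most AT1 genes stood at like levels. In the 79 cells, 3784 genes had at least 50 UMIs over both pools, and 202 of them (5.34%) differed at least 2-fold, 143 higher (3.78%) and 59 lower (1.56%) in Cre_Pos. In the 47 cells 2204 genes had 50 UMIs or more, and 74 (3.36%) differed at least 2-fold, 48 higher (2.18%) and 26 lower (1.18%). The median log2 ratio of Cre_Pos over Cre_Neg was 0.02 and 0.03. Intervals of gene ratios treat UMIs as independent counts, so they cover counting error only, not spread between cells, sublibraries or animals. In the 79 cells 720 of 3784 genes (19%) had an interval that did not hold 0. The cells differed in depth: AT1 cells held between 4211 and 33629 UMIs, with medians of 11410 in Cre_Neg and 15013 in Cre_Pos, and 379478 and 763556 UMIs in sum. The 47 cells summed to 221696 and 415905 UMIs.

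The rule's genes differed little between the pools. The rule asked for these genes in cells of both pools, so their likeness is in part set by the choice of cells. Rtkn2, Ager and Igfbp2 are also members of the GTPase regulator, receptor and signal lists read below. Rtkn2 had 6959, 6390, 9590 and 7418 CPM in the 4 Cre_Neg aliquots of the 47 cells and 6636, 6951, 5817 and 7836 in Cre_Pos. The log2 ratio, Cre_Pos over Cre_Neg here and below, was -0.23 (95% interval -0.31 to -0.14). The aliquots overlapped. Ager had 3952, 2673, 3311 and 2432 CPM against 3972, 2461, 4373 and 3085 (0.21), again with overlap. Hopx had 3157, 1982, 3216 and 1597 CPM in Cre_Neg and 2043, 1078, 2657 and 1863 in Cre_Pos (-0.42, -0.57 to -0.26), lower in 3 of 4 sublibraries. Of the other rule genes, the ratio was 0.25 for the anchoring protein gene Akap5, 0.03 for Col4a3, 0.16 for Spock2 and 0.49 (-0.08 to 1.09) for Igfbp2. Col4a3 was lower in Cre_Pos AT2 cells (-0.63). Of AT1 genes outside the rule, 31 reached 50 UMIs in the 47 cells, 21 higher and 10 lower in Cre_Pos with a median of 0.07, beside 53.5% higher and 46.5% lower among all genes tested. In the 79 cells the count was 16 and 16 of 32, with a median of -0.02, beside 52.1% higher and 47.9% lower among all genes.

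Barrier and transport genes were nearly level. Among all genes tested, 53.5% were higher in Cre_Pos, and 52.1% in the 79 cells, to set beside each count below. Of the basement membrane list, 11 of 17 genes with 50 UMIs were higher and 6 lower in Cre_Pos (median 0.03, and -0.14 without sublibrary 1), beside 8 and 9 in the 79 cells (-0.06). Lama3, a laminin chain of the epithelial basement membrane, was at 0.06, Col4a4 at 0.02 and Col4a2, a collagen IV chain, at -0.27 (-0.46 to -0.08). The laminin chain gene Lamb2 was at 1.09 (0.26 to 2.02) from 15 and 60 UMIs, and Col4a6 at -0.99 from 37 and 35 UMIs. Of 6 caveolar genes 4 were higher and 2 lower (median 0.05, and -0.14 without sublibrary 1), whereas in the 79 cells 1 was higher and 5 were lower (-0.16, and 0.15 without sublibrary 2). Cav1 had 1570 CPM in Cre_Neg and 1618 in Cre_Pos. Of 10 ion and water transport genes 7 were higher (median 0.13), and 9 of 13 in the 79 cells (0.12). The sodium channel subunits split, with Scnn1a at 0.35, Scnn1g at 0.07 and Scnn1b at -0.22, and the water channel gene Aqp5 was at 0.34 (-0.17 to 0.87). Of 13 junction genes 10 were higher (median 0.18), and 9 of 15 in the 79 cells (0.13). Cldn18, the main alveolar claudin, was at 0.25 (0.06 to 0.44), the scaffold gene Magi1 at -0.22 (-0.33 to -0.12) and the polarity gene Pard3 at -0.37 (-0.66 to -0.08).

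Differences went both ways among signals. Of 13 genes for signals to capillaries and mesenchyme, 7 were higher and 6 lower in Cre_Pos, with a median of 0.11 that became -0.20 without sublibrary 1 and -0.07 without sublibrary 3 or 4. In the 79 cells 7 were higher and 7 lower (0.05). Sema3a had 1839, 2071, 1852 and 1941 CPM in Cre_Neg and 1777, 1336, 1640 and 1493 in Cre_Pos, at a log2 ratio of -0.26. Every Cre_Neg aliquot of Sema3a lay above every Cre_Pos aliquot. How many of all 2204 genes separate in this way was not counted, here and for the genes below. Sema3e had 2734, 2779, 2326 and 3955 CPM against 2587, 1735, 2449 and 1900 (-0.32), with overlap. Vegfa, the growth factor by which AT1 cells support aerocytes, had 3132, 3876, 3727 and 3488 CPM against 3517, 2743, 3193 and 3788 (-0.11), also with overlap. The ErbB ligand gene Nrg1 was at -0.61 and its receptor gene Erbb3 at -0.82 (-1.55 to -0.09), while Wnt7a, a Wnt ligand, was at 0.78 (0.01 to 1.60) from 19 and 61 UMIs. Of 13 receptor and transducer genes 7 were higher and 6 lower, with a median of 0.00, beside 8 and 9 in the 79 cells (-0.07).

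Of 9 Hippo pathway genes with 50 UMIs in the 47 cells, 8 were higher in Cre_Pos and 1 lower, beside 53.5% higher among all genes, with a median of 0.42 that ranged from 0.09, without sublibrary 3, to 0.57 as each sublibrary was left out. In the 79 cells 10 of 15 were higher and 5 lower, beside 52.1% of all genes. Their median of 0.25 became -0.02 without sublibrary 3 and 0.03 when cells with any of the 5 endothelial genes of the rule were left out. Amotl2, a junction protein that binds YAP1 and is itself a target of the pathway, had 224, 265, 320 and 246 CPM in Cre_Neg and 487, 387, 415 and 568 in Cre_Pos (0.76, 0.34 to 1.20). All Cre_Pos aliquots of Amotl2 lay above all Cre_Neg aliquots, with no count over all genes to set beside it. The kinase gene Lats1 was at 0.78 (-0.14 to 1.81), the TEAD cofactor gene Vgll4 at 0.64 (0.02 to 1.30), Tead1 at 0.02 and the effector gene Wwtr1 at -0.32 (-0.75 to 0.12). Ankrd1, a further target gene below 50 UMIs that was picked after its values were seen, had 1 UMI in Cre_Neg and 22 in Cre_Pos (3.55, 0.92 to 8.92), spread over 13 cells. Other members of the list below 50 UMIs are not given, so nothing about the pathway is read from Ankrd1. In AT2 cells of the same pools Vgll4 was at 0.02 and Wwtr1 at -0.02. Of 9 lung transcription factor genes 5 were higher (median 0.04, and -0.18 without sublibrary 1), and 7 of 10 in the 79 cells (0.18), Nkx2-1 among them at 0.47 (-0.17 to 1.16).

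Actin cytoskeleton genes and GTPase regulators, which shape the flat cell body, gave 16 higher and 5 lower of 21 in the 47 cells (median 0.15), beside 53.5% higher among all genes. In the 79 cells the list gave 13 higher and 9 lower of 22 (0.03), with a median of -0.02 without sublibrary 1 and -0.10 without sublibrary 4. Flna, an actin crosslinker, was at 1.63 (0.83 to 2.53) from 15 and 87 UMIs and at 2.28 without sublibrary 1, Ezr, which links actin to the membrane, at 0.91 (0.34 to 1.53), and the GTPase-activating protein gene Dlc1 at 0.45 (0.23 to 0.68). Vcl, the adhesion protein vinculin, was lower, with 497, 920, 724 and 639 CPM in Cre_Neg and 563, 492, 470 and 370 in Cre_Pos (-0.55, -0.85 to -0.24). Its aliquots overlapped. Peak1 had 348, 637, 534 and 614 CPM against 734, 481, 689 and 1666 (0.66), but 1 cell held 30.7% of its Cre_Pos UMIs, and without sublibrary 4 the ratio was 0.32. In AT2 cells Peak1 was at 2.17.

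**Figure D4:**
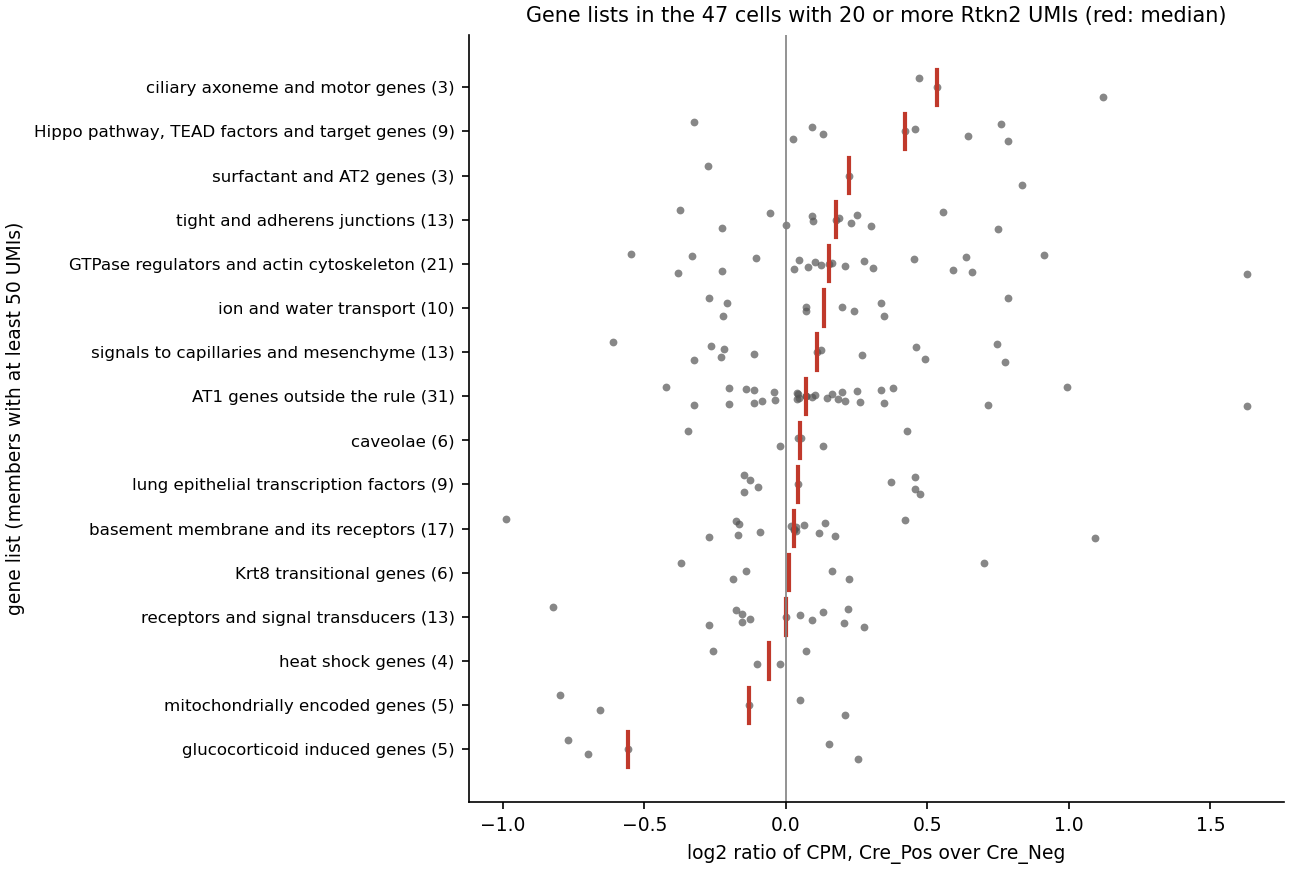
Log2 ratio of Cre_Pos over Cre_Neg for each gene with at least 50 UMIs in the 47 AT1 cells, by gene list (points), with the list median as a red bar and the number of genes in brackets. Medians lie near 0 for AT1 genes outside the rule (0.07) and basement membrane (0.03), at 0.42 for the Hippo list and at -0.56 for 5 glucocorticoid induced genes.

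Small groups of immune and hormone response genes were also read. H2-D1 (1.05, 0.26 to 1.91), H2-K1 (0.82, -0.10 to 1.84) and B2m (0.24), which build class I antigen-presenting complexes and whose close relatives can share reads, were each higher in Cre_Pos. Of 5 glucocorticoid induced genes 3 were lower and 2 higher (median -0.56), with a median from -0.78 to -0.12 as each sublibrary was left out, nearest 0 without sublibrary 3. Zbtb16, a hormone-induced transcription factor gene, had 771, 531, 961 and 147 CPM in Cre_Neg and 373, 434, 372 and 407 in Cre_Pos (-0.77), and was at 1101 and 1125 CPM in barcodes of at most 50 UMIs. Its aliquots overlapped. Tsc22d3, a glucocorticoid-induced leucine zipper protein gene, was at -0.70 (-1.42 to 0.03), Errfi1, an inhibitor of epidermal growth factor receptor signalling, at -0.56, Nr3c1, the receptor gene, at 0.15 and Klf9 at 0.26. In the 79 cells 7 of 7 such genes were lower (median -0.76), beside 47.9% of all genes. Krt8 transitional genes were 3 higher and 3 lower (median 0.01), heat shock genes 1 and 3 (-0.06) and mitochondrially encoded genes 2 and 3 (-0.13, and 0.16 without sublibrary 2). Surfactant genes in the 79 cells had a median of 0.35, and -0.70 without sublibrary 2, and the 4 sublibrary medians were -1.53, 3.02, -0.52 and -0.15.

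Among single genes in the 47 cells, 28 higher and 16 lower met a rule of at least 2-fold difference, the same sign in at least 3 of 4 sublibraries and the opposite in none, and no more than 30% of UMIs of the higher pool in 1 cell. Among those higher in Cre_Pos, Pibf1, which encodes a centrosomal protein, had 124, 70.8, 119 and 24.6 CPM in Cre_Neg and 247, 258, 197 and 160 in Cre_Pos. These aliquots did not overlap, but the rule that named Pibf1 asked for the same sign across sublibraries. How many of all genes separate in this way was not counted. The log2 ratio of Pibf1 was 1.29 (0.58 to 2.07), beside -0.05 in AT2 cells. Elf4, an ETS family factor, was at 1.37 from 12 and 58 UMIs and Kat6a, a histone acetyltransferase, at 1.09. Ptpn12, a cytoskeletal tyrosine phosphatase, was at 1.52, Sgms1, which makes sphingomyelin, at 1.57, and the small GTPase gene Arf3 at 1.24. Camkmt, which methylates calmodulin, was at 1.81, the kinase gene Map4k5 at 1.50 and the microtubule-binding protein gene Eml6 at 1.11.

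Adcy5, an adenylyl cyclase that makes cyclic AMP, ranked first among those lower in Cre_Pos. It had 149, 301, 237 and 491 CPM in Cre_Neg and 69.6, 11.7, 219 and 24.7 in Cre_Pos, lower in each sublibrary, though the highest Cre_Pos aliquot lay above the lowest Cre_Neg aliquot. The log2 ratio was -1.80 (-2.44 to -1.17), from -2.86 without sublibrary 3 to -1.31 without sublibrary 4. Adcy5 was an AT1 gene in these data, at 152 CPM against 0.505 in AT2 cells. Its pool ratio in AT2 cells, 1.32, rests on few UMIs at that level, so no opposite direction is read from it. Rapgef4, an exchange factor that cyclic AMP activates directly, was also in this group at -1.06 (-1.66 to -0.45), at 152 CPM against 3.08 in AT2 cells. Agmo, which cleaves ether lipids, was at -1.72 and Rhobtb1, an atypical small GTPase, at -1.23. Tbc1d8 had 174, 212, 202 and 221 CPM against 44.3, 152, 76.5 and 98.7 (-1.27), and Fam222b 149, 124, 131 and 147 against 75.9, 35.2, 32.8 and 24.7 (-1.49). Neither overlapped between the pools, and the rule that named both asked for the same sign across sublibraries. The others were Zfp697 (-1.61), the predicted gene Gm35330 (-1.36), Fbrsl1 (-1.34) and Ostf1 (-1.04).

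The first 10 genes in each direction were chosen from these same cells and sublibraries, so repeats within them are no independent check. Of these 20 genes, 16 to 19 stayed at least 2-fold apart as each sublibrary was left out. Among those that did not were Kat6a (0.65) and Eml6 (0.58) without sublibrary 2, Rhobtb1 without sublibrary 4 (-0.63), and Rapgef4 without sublibrary 1 (-0.89), 2 (-0.96) or 4 (-0.89). Tbc1d8 was at -0.95 without sublibrary 1, and Ostf1 at -0.95 without sublibrary 2 and -0.63 without sublibrary 4. Others moved further from 0: Camkmt to 2.49 and Fam222b to -2.09 without sublibrary 1, and Ptpn12 to 2.29, Sgms1 to 2.28 and Zfp697 to -2.29 without sublibrary 2. Among the 38 of the 47 cells with Xist and no Y-linked UMI (14 Cre_Neg, 24 Cre_Pos), 18 of 20 stayed past 2-fold, with Gm35330 at -0.50 and Ostf1 at -0.89. The 4 of the 47 cells with Y-linked UMIs and no Xist were all from Cre_Neg.

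**Figure D5:**
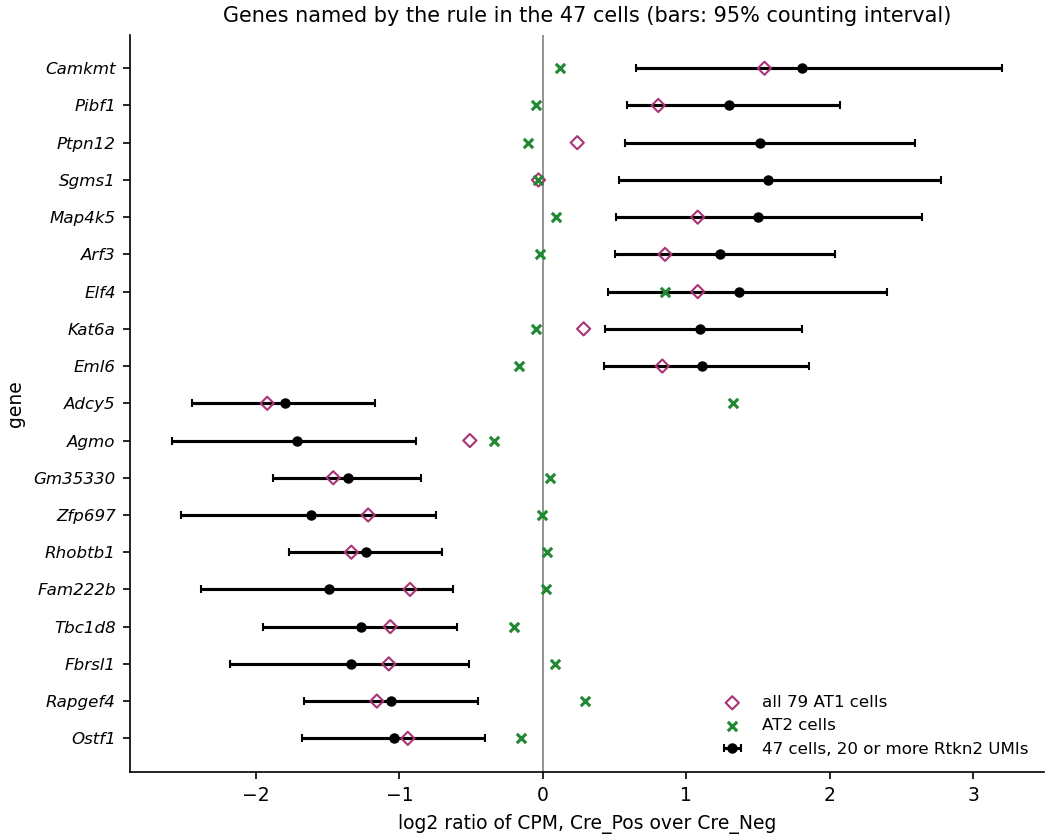
Log2 ratio of CPM, Cre_Pos over Cre_Neg, of genes ranked first in each direction in the 47 cells (black points, bars for the 95% counting interval), with the ratio over all 79 AT1 cells (open diamonds) and over AT2 cells (green crosses). Sgms1 lies at 1.57 in the 47 cells and -0.03 in the 79, and Adcy5 at -1.80 in the 47 cells and 1.32 in AT2 cells, the latter from few UMIs.

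Over all 79 cells the same ranking named other genes at the top. Cyp2f2, a cytochrome P450 of club cells, led with 13 UMIs in 1 Cre_Neg cell and 517 UMIs in 11 Cre_Pos cells. By sublibrary it had 0, 0, 0 and 128 CPM in Cre_Neg and 383, 398, 926 and 1097 in Cre_Pos, at a log2 ratio of 4.30. It had no UMI in the 47 cells. Fam13a (2.66), Ahr, the aryl hydrocarbon receptor gene (2.22), Hp, haptoglobin (2.07), Clu, clusterin (1.76), Sh3gl2 (1.69), Klf12 (1.69), Acyp2 (1.49), Cbr2, a carbonyl reductase of airway cells (1.37), and Sox6 (1.37) completed the 10. Without the 12 cells with club transcripts, 118 of 3118 genes tested (3.78%) differed 2-fold, against 202 of 3784 (5.34%), and Fam13a was at -1.91, Sox6 at -0.53, Hp at -0.26 and Cbr2 at -0.24. Single sublibraries weighed on several values. Clu was at 0.87 without sublibrary 2, Sox6 at 0.78 and Cyp2f2 at 3.65 without sublibrary 3, and Hp was at 3.06, Klf12 at 3.12 and Acyp2 at 2.21 without sublibrary 4. Fam13a was at 3.60 without sublibrary 1. Acyp2 kept its direction in the 47 cells (1.37). On the lower side Adcy5 (-1.92, and -2.70 without sublibrary 3), Gm35330 (-1.46), Rhobtb1 (-1.34, and -1.96 without sublibrary 1 and -0.83 without sublibrary 4) and Tbc1d8 (-1.06) were on both lists. The others were Ints6 and Phka2 (-1.83 each), the latter at -1.16 without sublibrary 2, ENSMUSG00000120248 (-1.62, and -2.24 without sublibrary 2), 5830417I10Rik (-1.29), Fam184a (-1.22) and Stxbp3 (-1.12).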

How the data were processed

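Cells of both pools were counted together in 4 sublibraries. The authors deposited UMI counts per gene and barcode as a sparse matrix of 647296 barcodes and 57010 genes with a cell table that gives each barcode's pool and sublibrary; the submitters' processing notes name build GRCm39, and for the aligner nothing is stated (not given in the sources used here). The lowest barcode held 10 UMIs. Of all barcodes 16579 had at least 500 genes, and 16541 of these had at most 15% mitochondrial UMIs. Their median was 8758 UMIs in Cre_Neg and 8266.5 in Cre_Pos. Of kept barcodes, 570 shared a well combination with another sublibrary's barcode, 5 of them AT1 cells.

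UMIs were summed over AT1 cells per pool and sublibrary and divided by their total (CPM), with Python 3.11.15, numpy 2.4.6, scipy 1.17.1, pandas 2.3.3 and scanpy 1.11.5. Clopper-Pearson intervals were computed for shares, and for ratios the interval of the binomial conditional on the sum, at 95%. Genes needed 50 UMIs over both pools. Of the 147 symbols carried by more than 1 gene identifier, each identifier was kept apart. Mitochondrial, ribosomal protein, sex-linked and haemoglobin genes could not be named, and genes were ranked by the interval bound nearest 0, the first 10 each way; against AT2 cells the first 20, seen in at least 50% of AT1 cells, were named. Of each list, all members were eligible in short lists, and the extremes and the most abundant in long ones. The calculation was tested on simulated counts. The members, lists and rules were chosen with earlier results of these data known. Alternatives changed the Rtkn2 limit, the barcode filters, the UMI minimum, the scaling, the sexes and the sublibraries used. Limits of 20 Rtkn2 UMIs and of club transcripts, and the repeats within the 47 cells, were chosen after seeing the data. Some genes, and a list that holds 1 of them, are not reported here.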

Additional observations from a re-analysis of the deposited data

Results flagged for a closer look

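Of 58 sets of 4 sublibrary values, 2 held a value far from the other 3, where chance alone gives about 1 in 20. Cyp2f2 in Cre_Neg AT1 cells had 128 CPM in sublibrary 4 and 0 in the others, all from 1 cell. Cbr2 in Cre_Pos AT1 cells had 754 CPM in sublibrary 4 against 189, 247 and 279 in the others. Acyp2 was higher in Cre_Pos AT1 cells in all 4 sublibraries (log2 ratio 1.49) and lower in Cre_Pos AT2 cells in all 4 (-0.29). The difference between the cell types was not tested.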

How the results depend on the processing

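The ratio of AT1 shares, 1.31, was 1.22 to 1.41 as each sublibrary was left out, 2.19 among cells with Y-linked UMIs and no Xist (5 cells per pool) and 1.04 without cells with club transcripts. The ratio per AT2 cell, 2.00, was 1.87 to 2.20 by sublibrary left out and 1.58 without cells with club transcripts. With 5 Rtkn2 UMIs the ratios were 1.19 and 1.81. The count of genes past 2-fold, 202 of 3784 tested (5.34%), was 153 to 236 (5.03 to 7.79%) as each sublibrary was left out. Among Y-linked cells it was 125 of only 314 tested (39.8%). Minimums of 20 and 100 UMIs gave 702 of 6576 (10.7%) and 69 of 2110 (3.27%). It was 74 of 2204 (3.36%) at 20 Rtkn2 UMIs and 118 of 3118 (3.78%) without club transcripts. The split of 143 higher and 59 lower became 115 and 94 at 2 Rtkn2 UMIs, 54 and 64 without club transcripts and 82 and 71 without sublibrary 2. Lists with a median above 0 were 10 of 19 at first and 2 of 8 among Y-linked cells. They numbered 8 to 13, of 17 to 19 lists, as each sublibrary was left out. The 20 genes named over the 79 cells were chosen from these same values, so repeats that leave out a sublibrary are no independent check. Of them, 11 stayed past 2-fold at 2 Rtkn2 UMIs, 9 among Y-linked cells and 9 at 20 Rtkn2 UMIs. Without club transcripts 11 stayed, and 18 to 19 as each sublibrary was left out. Directions turned for Sh3gl2 (-0.026) and Klf12 (-0.50) among Y-linked cells, for Klf12 (-0.00078) and Sox6 (-0.22) at 20 Rtkn2 UMIs, and for Fam13a (-1.91), Hp (-0.26), Cbr2 (-0.24) and Sox6 (-0.53) without club transcripts; the cause was not tested. In the 47 cells, the 74 genes past 2-fold were 48 to 90, the lowest without sublibrary 1. The number of genes tested changed in these repeats too, so these counts are not shares. Thinned to 1000 UMIs a cell, the share with Pdpn went from 67.1 to 19%, with Sftpc from 38 to 21.5% and with Igfbp2 from 38 to 8.86%. With a pseudocount of 1 CPM, 13 of the 20 leading genes remained. Removing barcodes called by Scrublet or with under 1000 genes changed no count of AT1 cells. Genes with under 5 UMIs in an alternative gave no value. No paired analysis was possible because each genotype is 1 pool and the replicate numbers in the labels mark aliquots of both pools together.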

Other observations

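Ciliary genes were few in the 47 AT1 cells. Of that list Tppp3, a tubulin-binding protein gene, Dnah11, a dynein chain, and Cfap43 reached 50 UMIs. All 3 were higher in Cre_Pos (0.53, 1.12 and 0.47), beside 53.5% of all genes tested. Of the Cre_Pos UMIs of Dnah11, 61.2% were in 1 cell. Over all AT1 cells, the sublibrary medians of the list were 1.37, 0.53, -0.64 and 0.70, so the direction turned in sublibrary 3. Among lipid genes Scd1, a fatty acid desaturase, had 1 UMI in Cre_Neg and 44 in Cre_Pos, 90.9% of them in 1 cell. Scel was at -0.60, with 35.6% of its UMIs of the higher pool in 1 cell, and at -0.15 without sublibrary 2. Ptprm, a receptor phosphatase on the endothelial list, was at 3703 CPM in the 47 cells, 1009 in AT2 cells and 2662 in aerocytes. With 1 pool per genotype, differences between animals, sexes and genotypes cannot be told apart.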
